A study of Mus musculus with 4 samples.

Results

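The carboxylesterase 2 (Ces2) family was examined in LSK cells lacking SRC-3. The members were the 6 mouse genes Ces2a, Ces2b, Ces2c, Ces2e, Ces2f and Ces2g, taken through array probe sets annotated to exactly 1 gene, and 5 of the 6 had such a probe set, 1 each, among 22180 genes measured. Ces2c had none in the annotation and was not analysed here. LSK cells are bone marrow cells without lineage markers that carry Sca1 and c-Kit, a fraction that holds blood stem cells and multipotent progenitors, and they were sorted by flow cytometry after red cell lysis. Total RNA was hybridised to 4 Affymetrix arrays: 2 samples from SRC-3 knockout (KO) mice and 2 from wild-type (WT) mice, all male and 8 weeks old. SRC-3, the product of Ncoa3, is a coactivator that nuclear receptors and other transcription factors recruit. The strain, the deleted part of Ncoa3, whether the deletion was present in all tissues and how many mice went into a sample are not stated in the labels. The samples of a group are labelled as biological replicates. Nothing says that each came from its own animals, so the p-values may reflect technical spread alone.

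Carboxylesterases are serine hydrolases that reside in the endoplasmic reticulum and cleave ester, amide and thioester bonds in drugs, other foreign compounds and lipids. Liver and intestine are their best known sites, where the human enzyme CES2 activates the prodrug irinotecan, and mouse Ces2a and Ces2c can hydrolyse neutral glycerolipids. Humans carry a lone CES2 gene, whereas the mouse genes form a tandem array on chromosome 8. Liver and gut carboxylesterase genes are controlled in part by nuclear receptors, among them the foreign compound sensors PXR (Nr1i2) and CAR (Nr1i3) and the hepatocyte factor HNF4A.

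The family was chosen by the KO minus WT differences measured on these arrays, with the question whether Ces2g moves alone, so the members' values are given as a description without a test. The promoters of 4 of the measured members are shown first because the genes are neighbours with related upstream sequence and unlike readouts. Each is the RefSeq window of 250 bases before and 50 bases after the start site (assembly GRCm38.p6, plus strand), written 5′ to 3′. Capitals mark matches, on either strand, to 3 motifs chosen after the sequences were seen: the nuclear receptor core hexamer AGGTCA, the GATA factor sites AGATAA and TGATAA, and the HNF4 core CAAAGT. Ces2g lies at chr8:104961468-104961767, Ces2f at chr8:104947106-104947405, Ces2e at chr8:104926010-104926309 and Ces2a at chr8:104733753-104734052.
Ces2g: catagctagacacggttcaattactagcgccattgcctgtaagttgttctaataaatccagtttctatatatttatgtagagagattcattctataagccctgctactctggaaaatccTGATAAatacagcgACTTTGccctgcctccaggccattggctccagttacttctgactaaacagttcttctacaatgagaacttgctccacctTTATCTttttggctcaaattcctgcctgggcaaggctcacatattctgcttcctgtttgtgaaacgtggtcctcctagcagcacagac
Ces2f: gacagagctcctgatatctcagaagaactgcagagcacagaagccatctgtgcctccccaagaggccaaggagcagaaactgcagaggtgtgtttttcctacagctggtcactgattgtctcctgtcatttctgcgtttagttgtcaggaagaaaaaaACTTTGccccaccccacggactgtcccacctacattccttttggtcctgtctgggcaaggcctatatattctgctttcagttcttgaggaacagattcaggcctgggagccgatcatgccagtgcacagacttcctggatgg
Ces2e: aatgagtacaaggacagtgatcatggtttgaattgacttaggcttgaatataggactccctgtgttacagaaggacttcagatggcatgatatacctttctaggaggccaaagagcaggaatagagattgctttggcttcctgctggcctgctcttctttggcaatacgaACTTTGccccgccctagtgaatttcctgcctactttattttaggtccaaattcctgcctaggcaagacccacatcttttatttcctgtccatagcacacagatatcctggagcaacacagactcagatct
Ces2a: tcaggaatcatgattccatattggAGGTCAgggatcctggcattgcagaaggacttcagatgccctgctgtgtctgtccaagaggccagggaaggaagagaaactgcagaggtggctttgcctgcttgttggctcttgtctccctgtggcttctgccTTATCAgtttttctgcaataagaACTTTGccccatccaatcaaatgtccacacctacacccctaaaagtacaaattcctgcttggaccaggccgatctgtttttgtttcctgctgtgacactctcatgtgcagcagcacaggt

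The Ces2g and Ces2f windows start 14362 bases apart, and no other gene of the RefSeq table lies between Ces2f and Ces2g. In global alignments the Ces2g window was identical to that of Ces2f at 60.3% of 262 aligned bases, to Ces2e at 59.9% of 282, to Ces2a at 61.2% of 276 and to the unmeasured Ces2c at 69.1% of 278. The Ces2a window was identical to that of Ces2f at 73.3% of 262 aligned bases. When only the last 150 bases of each window were aligned, the Ces2g identities were closer to that of Ces2a with Ces2f, which was 72.9%. Ces2g was then at 70.8% with Ces2f, 67.9% with Ces2e, 64.1% with Ces2a and 71.7% with Ces2c. All 4 printed windows held the HNF4 core, read as ACTTTG on the strand shown, and the Ces2c window did not hold it. Of all 32851 RefSeq promoter windows 14.4% held it, but related promoters are not independent draws. A GATA site occurred in the windows of Ces2g, as TGATAA at base 120 and as TTATCT at base 213, and of Ces2a, as TTATCA at base 158, counted from the 5′ end of the window. Such sites stood in 18.6% of all windows. The nuclear receptor hexamer was in the Ces2a window, and 16.3% of all windows held it. No match was found to it in the windows of Ces2g, Ces2f, Ces2e or Ces2c, which says only that those letters are not there. Ces2b had no entry.

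Ces2g (gene identifier 72361) was the member with the large difference. It stood at 8.18 and 7.86 on the KO arrays, against 4.59 and 4.40 on the WT arrays (log2 expression). Both KO arrays were far above both WT arrays, and the groups were separated by many times the spread within either. The means were 8.02 ± 0.23 in KO and 4.49 ± 0.14 in WT (SD, n = 2 each), a difference of 3.53 ± 0.20 on the log2 scale (moderated SE), or 11.5-fold. A KO array exceeded a WT array by 3.27 in the closest pair and by 3.78 in the widest. The difference was the fifth largest increase among 23521 single-gene probe sets, as a description of a gene chosen for it. In bulk RNA, more cells that express Ces2g and more Ces2g RNA per cell cannot be told apart.

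**Figure D1:**
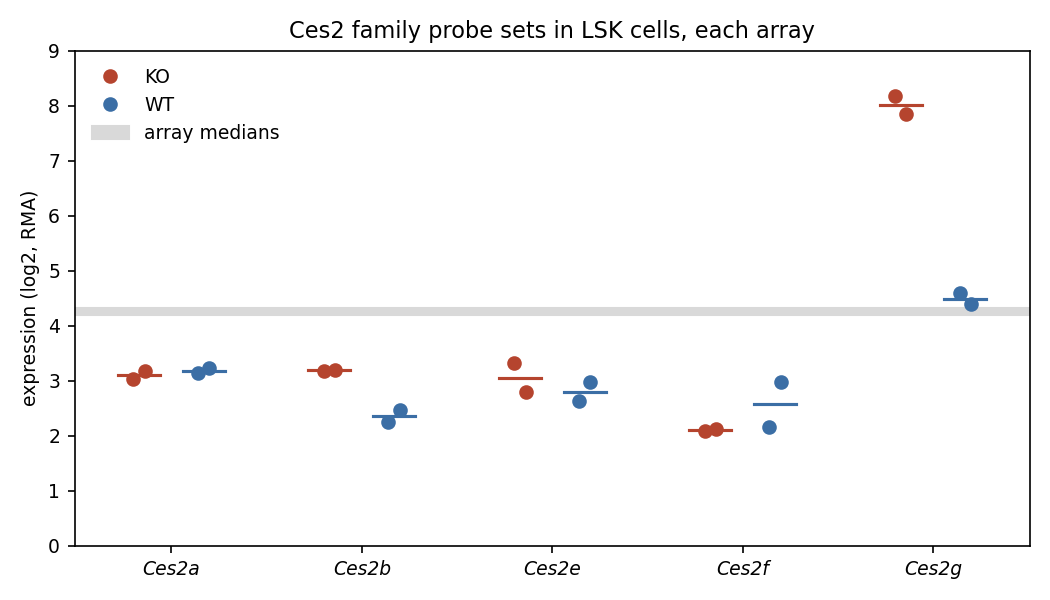
Log2 expression of the 5 measured Ces2 members on each array, with KO arrays in red to the left of WT arrays in blue. Points are arrays, short lines are means of 2 arrays, and the grey band spans the medians of the 4 arrays over all single-gene probe sets. Ces2g reaches 8.18 and 7.86 in KO and 4.59 and 4.40 in WT, while all values of the other members lie between 2.09 and 3.31.

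The other 4 measured members were dim on every array. Their values ran from 2.09 to 3.31, below the median single-gene probe set of each array, which was 4.20 to 4.32. On their own array these values stood at percentiles from 9.86 to 34.1. Values of dim probe sets are compressed by the RMA summary, so their differences understate a change, and probe sets of different genes cannot be ranked by level because their probes bind with different strength. No detection calls were used here, so no member could be called absent.

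Ces2b (gene identifier 234669) had the next largest difference, and it ran the same way as that of Ces2g. It stood at 3.18 and 3.20 on the KO arrays, against 2.24 and 2.47 on the WT arrays. Both KO arrays lay above both WT arrays, as in 25.1% of all probe sets, with a gap of 0.70 between the groups. The difference was 0.83 ± 0.16 (log2, SE), or 1.78-fold, which ranked 655 among the increases of all probe sets. Between single arrays the KO minus WT difference of Ces2b ran from 0.70 to 0.96, against 3.27 to 3.78 for Ces2g. Close paralogs may share probe signal, and the part of Ces2g signal in the Ces2b values was not tested.

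Ces2f (gene identifier 71903), the gene next to Ces2g, was at 2.09 and 2.11 on the KO arrays, against 2.16 and 2.98 on the WT arrays. The groups were separated by 0.05, and WT replicate 2 was apart from the other 3 arrays. Its difference of -0.47 ± 0.27 rested on that array: it was -0.06 without WT replicate 2 and -0.88 without WT replicate 1. Ces2e (gene identifier 234673) was at 3.31 and 2.79 on the KO arrays, against 2.62 and 2.97 on the WT arrays. These groups overlapped, with a difference of 0.26 ± 0.23 that was -0.0025 without KO replicate 1 and 0.52 without KO replicate 2. Ces2a (gene identifier 102022) was at 3.03 and 3.17 on the KO arrays, against 3.14 and 3.23 on the WT arrays. Its groups overlapped as well, and the difference was -0.08 ± 0.16.

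**Figure D2:**
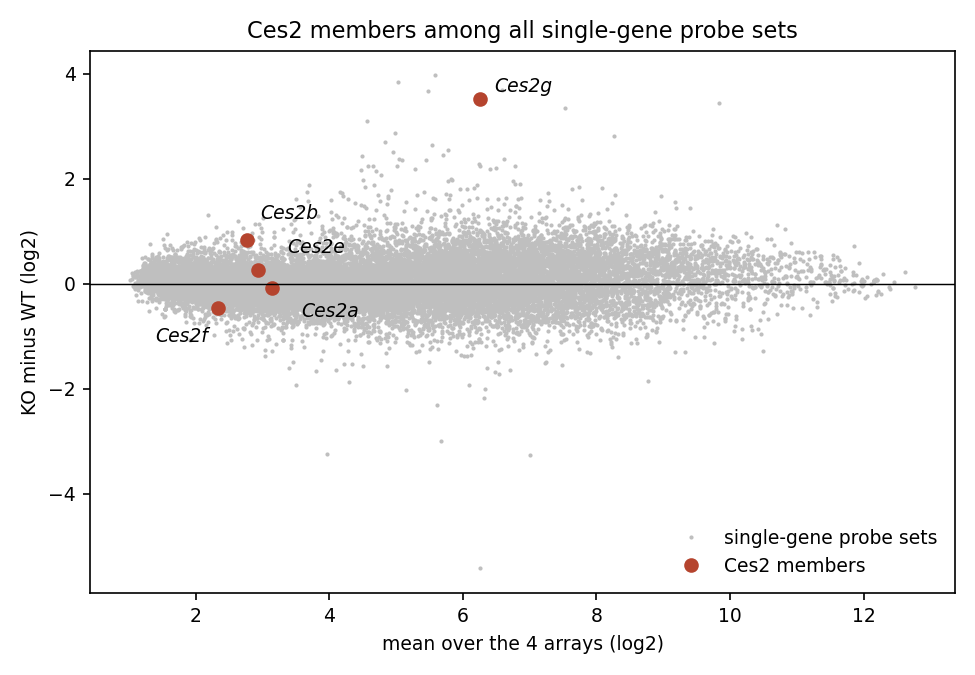
Difference between KO and WT (log2, vertical axis) against the mean over the 4 arrays (log2, horizontal axis) for 23521 single-gene probe sets in grey, with the 5 Ces2 members in red. Ces2g lies at 3.53, above nearly all probe sets, Ces2b at 0.83, and Ces2e, Ces2a and Ces2f at 0.26, -0.08 and -0.47 at the dim end.

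The limma threshold of an adjusted p under 0.05 was passed by 0.412% of all probe sets. The members, chosen on this comparison, are given no call. The call rule of an unadjusted p under 0.05, used for the lists further on, took 17.4% of all probe sets. Both KO arrays lay above both WT arrays for 2 members, where 25.1% of all probe sets had that order, and below for 1, where 22.9% did. The other 2 overlapped. Nothing is read from these counts, since the family was selected on the same comparison. The median difference of the 5 was 0.26, and that of all probe sets was -0.00045.

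The array check of the labels came from Ncoa3, which was at 5.35 and 5.09 on the KO arrays, against 7.76 and 7.05 on the WT arrays (limma adjusted p = 0.038). When either KO array was left out, 0 probe sets were called by limma, Ncoa3 included, with 1597 and 2065 at an unadjusted p under 0.05. Counts of calls in the lists that follow depended on single arrays: over all lists 8 of 125 genes passed the threshold with all arrays, 0 without KO replicate 1 or KO replicate 2, 19 without WT replicate 1 and 30 without WT replicate 2. The cause was not tested.

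No measured neighbour of the cluster passed the threshold. Within 300000 bases of the members' span the RefSeq table listed 39 other genes, of which 20 were measured. In limma 0 of the 20 passed the threshold over all probe sets, and 2 were higher at an unadjusted p under 0.05. Their median difference was 0.04, with a range from -0.29 to 0.65. The largest were Nae1, which encodes a subunit of the NEDD8 activating enzyme, at 0.65 ± 0.19 (adjusted p = 0.17), and Ciao2b, of cytosolic iron-sulfur protein assembly, at 0.56 ± 0.18 (SE, adjusted p = 0.20). The nearest measured gene beyond Ces2g was Ces2h, at 2.84 and 3.17 on the KO arrays, against 2.90 and 2.997 on the WT arrays. These arrays overlapped. The pseudogene Ces2d-ps, inside the cluster, was at 3.67 and 3.93 in KO and at 3.80 on both WT arrays.

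**Figure D3:**
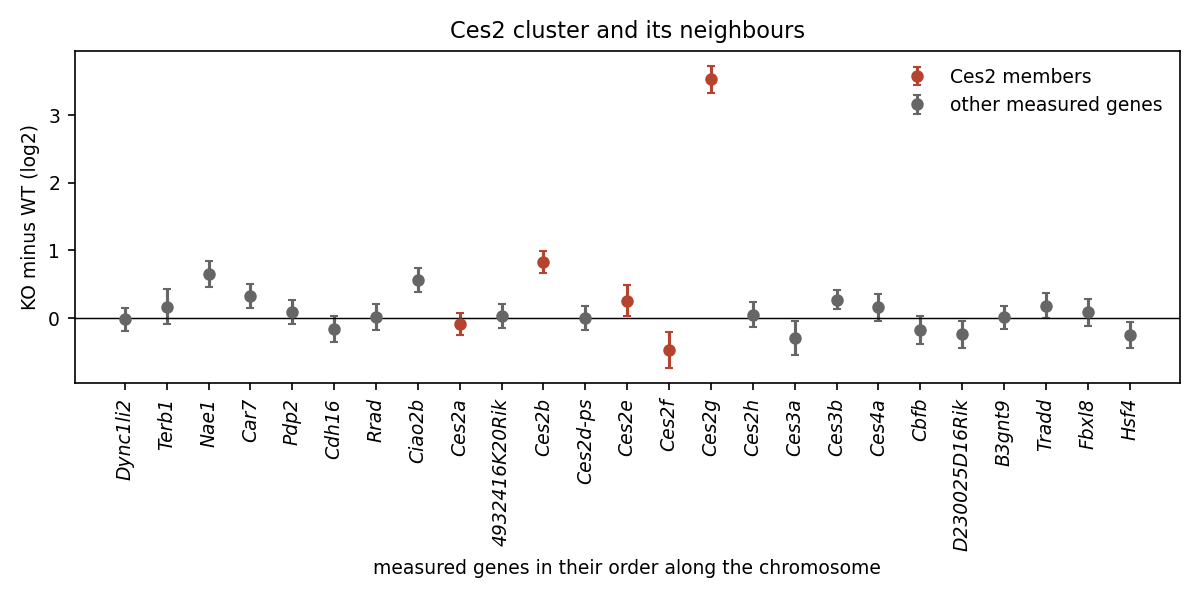
Difference between KO and WT (log2, with moderated SE) of the measured genes of the Ces2 region in their chromosome order, spaced evenly. Ces2 members are in red and other genes in grey. Ces2g at 3.53 stands between Ces2f at -0.47 and Ces2h at 0.05, and the measured neighbours other than members run from -0.29 to 0.65.

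Among the carboxylesterase genes that are not members, none passed the threshold. All 13 listed genes, Ces1a to Ces1h, Ces2h, Ces3a, Ces3b, Ces4a and Ces5a, were measured, and 4 of them also count among the neighbours above. In limma 0 passed the threshold, and 0 had an unadjusted p under 0.05. The differences ran from -0.34 to 0.27, with a median of 0.05. The smallest p-values were those of Ces3b, at 0.27 ± 0.14 (adjusted p = 0.38), Ces1g, a lipid hydrolase of liver, at -0.34 ± 0.21 (adjusted p = 0.47), and Ces1h at 0.24 ± 0.20 (SE, adjusted p = 0.61). Like the dim Ces2 members, 12 of the 13 were below the median probe set in their mean over the arrays.

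Enzymes and cofactors of neutral lipid hydrolysis, the reaction that mouse Ces2a and Ces2c can carry out, did not pass the threshold one by one. Of 22 listed genes 21 were measured, limma called 0, and 3 were higher at an unadjusted p under 0.05, with a median of -0.01. Lpl, the lipoprotein lipase gene, was at 0.56 ± 0.19, Abhd5, the coactivator of adipose triglyceride lipase, at 0.54 ± 0.18, and Hilpda, an inhibitor of that lipase, at 0.46 ± 0.19 (SE, adjusted p = 0.21, 0.19 and 0.28). Each had both KO arrays above both WT arrays. Of the 21, 6 had that order and 4 the reverse, where 25.1% and 22.9% of all probe sets did. Among the 4, Pnpla7 was at -0.53 and Pnpla6 at -0.38 (limma adjusted p = 0.36 and 0.41). With its probe sets averaged, Lpl was at 0.36 (limma adjusted p = 0.28).

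Among 15 measured genes of 16 listed for other ester and epoxide hydrolases, limma called 0, and 2 were higher at an unadjusted p under 0.05, with a median of -0.10. Ephx2, the soluble epoxide hydrolase gene, was at 4.91 and 4.77 on the KO arrays, against 3.75 and 3.44 on the WT arrays. Its groups did not overlap, and the difference was 1.25 ± 0.19 (SE, limma adjusted p = 0.062). With arrays centred on their median the adjusted p was 0.038, and over all alternatives it ran from 0.036 to 0.71. Lypla1, an acyl-protein thioesterase gene, was at 0.51 ± 0.19, and Nceh1, a cholesteryl ester hydrolase gene, at -0.37 ± 0.19 (SE, adjusted p = 0.24 and 0.37). With each gene's probe sets averaged, Lypla1 was at 0.27 and Nceh1 at -0.35 (limma adjusted p = 0.50 and 0.35).

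Receptors and factors known to regulate carboxylesterase genes had a median difference of -0.06 over 9 measured genes of 10 listed. In limma 0 passed the threshold, and 2 were lower at an unadjusted p under 0.05. Hnf4a was at 5.50 and 5.74 on the KO arrays, against 6.38 and 6.07 on the WT arrays, a difference of -0.61 ± 0.20 (SE, limma adjusted p = 0.20). Rxra, the common partner of PXR and CAR, was at 3.39 and 3.48 on the KO arrays, against 3.85 and 3.98 on the WT arrays, at -0.47 ± 0.17 (SE, adjusted p = 0.22). In both genes the KO arrays lay below the WT arrays. They were the only 2 of the 9 with that order, which 22.9% of all probe sets had. The reverse order was seen in 1 of the 9, against 25.1% of all probe sets. Rxra was dim, below the median probe set on every array. The PXR gene Nr1i2 was at 2.94 and 3.03 on the KO arrays, against 3.001 and 3.25 on the WT arrays, and the CAR gene Nr1i3 at 3.50 and 3.66 against 3.63 and 3.64. Both of these pairs of groups overlapped.

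**Figure D4:**
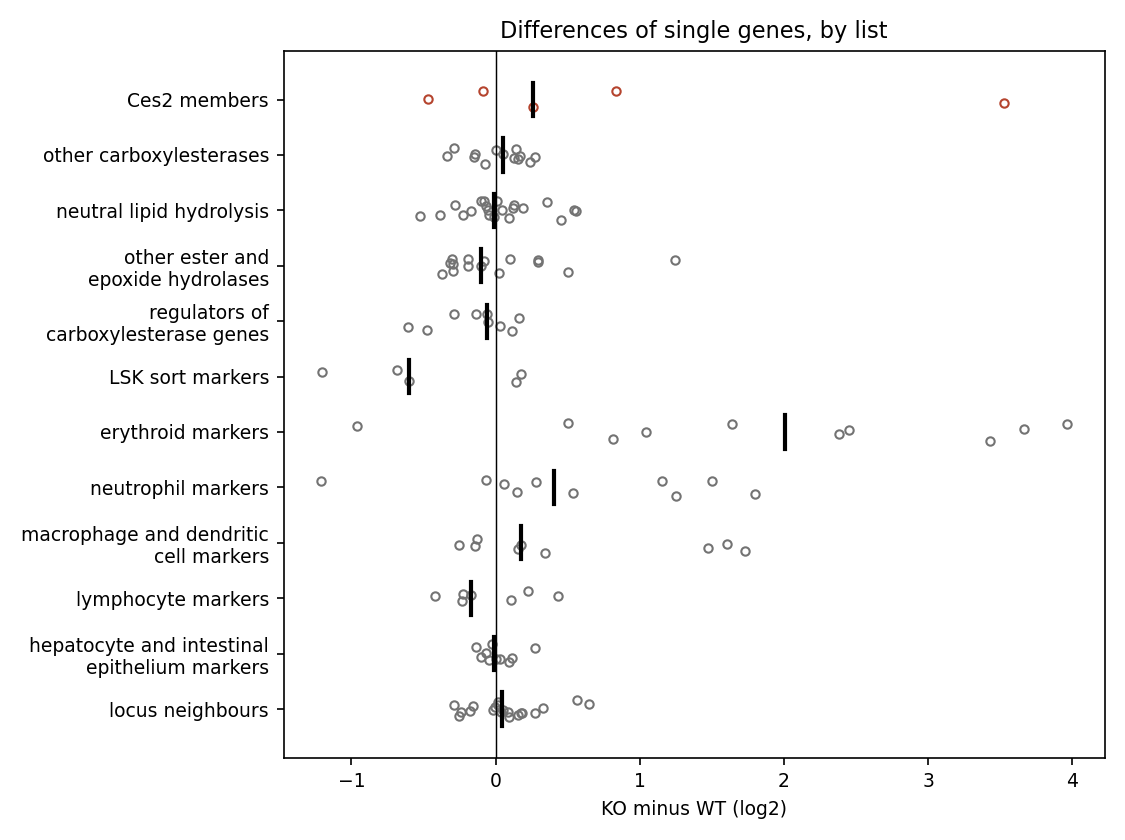
Difference between KO and WT (log2) of each measured gene, by list, with the median as a vertical bar. The Ces2 members (top) hold Ces2g at 3.53, while the other carboxylesterases run from -0.34 to 0.27 and erythroid markers reach 3.97.

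Some markers of red cell development, 5 of 10 measured, rose in KO together with Ces2g. Of 14 listed genes 10 were measured, and 5 rose and 0 fell past the limma threshold, where 0.323% of all probe sets rose and 0.0893% fell, and the median difference was 2.01. Those that rose were Ermap, an erythroid membrane protein gene, at 3.97 ± 0.29, Rhag, of the Rh complex, at 3.67 ± 0.24, Car1, a carbonic anhydrase of erythroid progenitors, at 3.43 ± 0.20, Klf1, an erythroid transcription factor, at 2.45 ± 0.31, and Tspo2 at 2.38 ± 0.17 (log2, SE, adjusted p from 0.0058 to 0.039). Car2, Epor, Gata1 and Tfrc did not pass, at 1.04, 1.64, 0.82 and 0.50 (adjusted p from 0.056 to 0.25). Slc4a1, the anion exchanger of mature red cells, was at -0.96 (adjusted p = 0.13), with both KO arrays below both WT arrays. The measured erythroid markers summed to 4633 and 4490 on the KO arrays, against 795 and 911 on the WT arrays (linear scale), so that both KO sums were above both WT sums. Without Car1, the brightest of them, the sums were 1552 and 1556 in KO and 563 and 577 in WT. Alas2, Hba-a1 and Hbb-bt were among the listed genes not analysed here. The part of these cells in the Ces2g difference was not tested.

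Markers of liver and gut, the tissues best known for Ces2 expression, were dim, and none passed the threshold. All 10 were measured, limma called 0, 0 had an unadjusted p under 0.05, and the differences ran from -0.13 to 0.27. Their sums were 99.9 and 110 on the KO arrays, against 102 and 107 on the WT arrays, and 9 of the 10 had a mean below the median probe set. Macrophage and dendritic cell markers had 3 of 9 measured genes that rose and 0 that fell in limma, H2-Aa at 1.73, H2-Eb1 at 1.48 and Slc40a1 at 1.60, with a median of 0.18 over the list. Cd68, Itgax and Mrc1 were at -0.26, -0.13 and -0.15, and their arrays overlapped between groups. Csf1r, Vcam1 and Adgre1 were at 0.18, 0.34 and 0.15. Of the 9 genes 5 had both KO arrays above both WT arrays and 0 the reverse, where 25.1% and 22.9% of all probe sets did. The list summed to 909 and 947 in KO and 631 and 506 in WT, but without H2-Aa and H2-Eb1 to 388 and 393 in KO and 442 and 341 in WT, which overlap. Neutrophil markers had a median of 0.41 over 10 genes, with 0 called in limma, unadjusted p-values under 0.05 for 5 higher genes and 1 lower gene, and sums of 7914 and 7937 in KO and 7421 and 5737 in WT. Without Mpo, the brightest, the sums were 3696 and 3782 in KO and 2856 and 2197 in WT. Itgam was the lower gene, at -1.21 (limma adjusted p = 0.11), and Mpo, Ltf, Mmp8 and Ly6g were at 0.06, 0.28, 0.15 and -0.06. Camp and Ngp, of neutrophil granules, were at 1.80 and 1.15 (adjusted p = 0.057 and 0.059). Both passed with arrays centred on their median (adjusted p = 0.026 and 0.048) and among probe sets at or above the median level (0.037 each), and over all alternatives the adjusted p ran from 0.0075 to 0.72 for Camp and from 0.010 to 0.72 for Ngp. Lymphocyte markers had a median of -0.17 over 7 genes, with 0 called in limma, 1 lower at an unadjusted p under 0.05, and sums of 1299 and 1372 in KO and 867 and 1180 in WT. Nkg7, a gene of cytotoxic cells, carried these sums, and without it the other 6 markers summed to 63.8 and 61.1 in KO, below 66.6 and 74.6 in WT. Only 2 of the 7 markers, Nkg7 among them, had a mean at or above the median probe set, so the sums without Nkg7 come mostly from dim probe sets. The part of these cells in the result was not tested.

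The labelled LSK cells expressed the sort and progenitor markers that could be read. On the KO arrays Kit was at 9.43 and 9.34, against 10.3 and 9.65 on the WT arrays, and Cd34 at 10.2 and 10.1, against 10.9 and 10.7. Ly6a, which encodes Sca1, was not analysed here. In limma 0 of 5 measured markers passed the threshold, with 3 lower at an unadjusted p under 0.05: Flt3 at -1.21, Cd34 at -0.68 and Kit at -0.60 (adjusted p = 0.11, 0.087 and 0.25). Of all probe sets 17.4% had such a p in either direction. Slamf1 and Cd48 ran the other way, at 0.18 and 0.14. Both had both KO arrays above both WT arrays, as 25.1% of all probe sets did.

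The genes whose pattern was most like that of Ces2g were sought by the Euclidean distance between log2 values of the 4 arrays, each gene centred on its own mean. Leaving out unnamed gene models, the 5 nearest were Car1 at a distance of 0.54, Rhag at 0.62, Ermap at 0.67, the interferon-inducible gene Ifi204 at 0.74 and the metallothionein gene Mt2 at 0.87. Car1 was at 11.6 and 11.5 on the KO arrays, against 7.86 and 8.38 on the WT arrays. Each of the 5 had both KO arrays above both WT arrays, and with 4 arrays the distance mainly reflects the size of the difference. Mt2 was at 6.23 and 6.13 on the KO arrays, against 3.72 and 3.26 on the WT arrays. The other measured Ces2 members were not among them, which follows from their smaller differences and adds nothing to the values above.

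**Figure D5:**
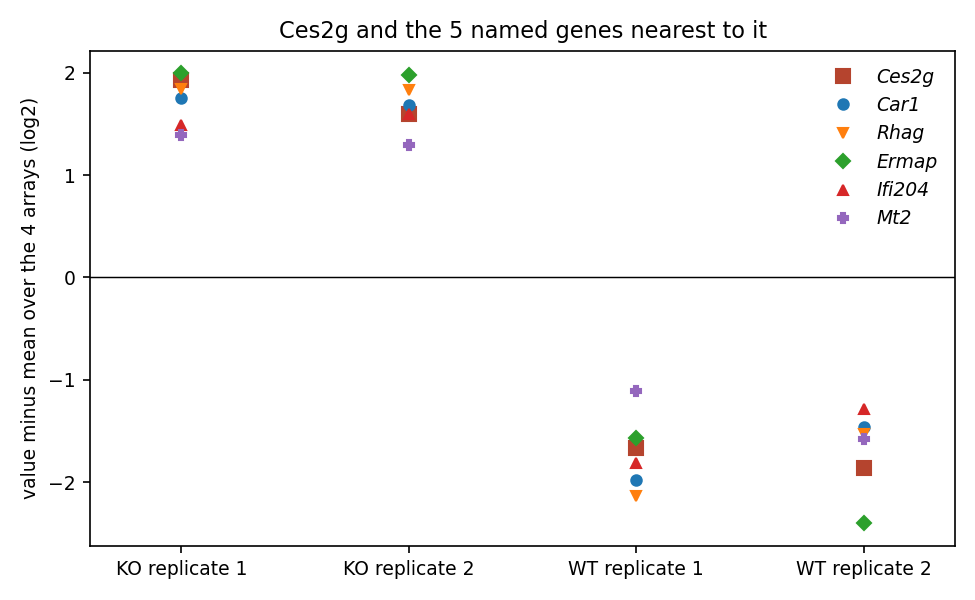
Log2 values of Ces2g and of the 5 named genes nearest to it, each minus its mean over the 4 arrays (vertical axis), on the KO and WT arrays (horizontal axis). All 6 genes lie above 0 on both KO arrays and below 0 on both WT arrays.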

How the data were processed

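Total RNA of LSK cells was measured on 4 arrays, and the deposited table holds the authors' log2 expression for 41345 probe sets. The submitters' processing notes name RMA and Affymetrix Expression Console 1.2.1, without settings, and the log2 scale was taken from the values. The annotation gave 1 gene for 23521 probe sets, several for 1814 and none for 16010. Only single-gene probe sets entered the tests, without a filter, and lists took each gene's probe set of highest mean. The KO and WT arrays were fitted in limma 3.58.1 under R 4.3.3, with an intensity trend, two-sided, adjusted by Benjamini-Hochberg over all 23521. Probe sets rather than genes were the unit, so that every member probe set was covered. The fit was tested on simulated data. Promoter windows of RefSeq (GRCm38.p6) were aligned with Biopython 1.88. The members, lists and tests were chosen with earlier results of these data known. Named genes are the members, Ncoa3, the 5 genes nearest to Ces2g, and of each list those past the threshold and the 3 of smallest p, of which some are left out of the text. Slc4a1, Car2, Epor, Gata1, Tfrc, Nr1i2, Nr1i3, Ces2h, Ces2d-ps, Cd68, Itgax, Mrc1 and Mpo fall outside that rule. Itgam, Ltf, Mmp8, Ly6g, S100a9, Elane, Csf1r, Vcam1, Adgre1, Cd48, Slamf1, Pnpla6 and Pnpla7 do so too. All of these were chosen after their values were seen. Precision is limited by 2 arrays per group, and scan dates were not used. Close paralogs such as the Ces2 genes may share probe signal.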

Additional observations from a re-analysis of the deposited data

How the results depend on the processing

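The Ces2g difference was 3.49 after quantile normalization and 3.57 with arrays centred on their median, and ran from 3.36 to 3.69 with each array left out in turn. Ces2b ran from 0.72 to 0.95, Ces2e from -0.0025 to 0.52 and Ces2f from -0.88 to -0.06 with each array left out. With 2 arrays per group such a shift is fixed by the spread of the group, so it says nothing about stability. The number of probe sets past the threshold was 97. It was 193 with arrays centred on their median, 262 among probe sets at or above the median level and 27 over all probe sets of the table, and from 0 to 3123 with each array left out, where limma called 0 without KO replicate 1 (1597 at an unadjusted p under 0.05) or KO replicate 2 (2065). With quantile normalization it was 134. For the lists, 8 calls became 13 with centred arrays and 2 over all probe sets, and from 0 to 30 with each array left out. With the replicate number as a block, 107 probe sets and 11 list genes passed, Camp and Ephx2 among them (adjusted p = 0.034 and 0.048). Replicate 1 of KO and of WT deviated together at r = 0.11 across probe sets, and with 2 pairs the samples share only a number. Of the 34 list genes examined, Rxrb, at -0.29, ran from -0.60 to 0.015 with each array left out, positive without WT replicate 1, and Alpi, at -0.13, ran from -0.28 to 0.011, positive without KO replicate 1. The cause of these shifts was not tested. Sums of the marker lists without their brightest gene, or without H2-Aa and H2-Eb1, were chosen after seeing the data. A lone array of a group was assumed to vary like the others.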
